A study of Mus musculus with 23 samples.

Results

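The 12 epididymal fat pads of the study fell into 7 with high and 5 with low levels of Gpx5, an epididymis gene, and the transcripts that differed between them are described here. The pads were selected on their Gpx5 level, as raw CPM (the count of a gene as a share of all counts of its library, on the usual scale of that name), with 1000 CPM as the limit. They were 12 of the 23 libraries of the series, 1 library per mouse, and the other 11 were from quadriceps. All mice were male C57BL/6J hosts with unedited genomes, 8 weeks old at surgery. No tumor mice had sham surgery. KPC mice received, into the pancreas, cells of a single-cell clone of a pancreatic tumor line from a genetically engineered mouse, and the clone carried a control CRISPR plasmid. KPC IL6KO mice received a single-cell clone of the same line in which Il6 had been targeted, so that each tumor group was the product of 1 clone. Pads were taken from 4 mice of each group when the KPC mice showed wasting. The high class held no tumor 5 and 7, all 4 KPC pads (5 to 8) and KPC IL6KO 6, and the low class held no tumor 6 and 8 and KPC IL6KO 5, 7 and 8.

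The epididymis is a coiled duct in which sperm mature, and in male mice the fat pad named after it is attached along the duct. Its epithelium secretes different proteins in the initial segment, the caput, the corpus and the cauda, and the cauda continues into the vas deferens. Much of this secretion depends on androgens and, in the initial segment, on factors that reach the epithelium through the lumen. The vas deferens and the cauda have a thick smooth muscle wall, and the seminal vesicles and the prostate lie where the vas deferens ends.

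The stretches below lie before 5 genes that the text returns to, from RefSeq (build GRCm38.p6), 5′ to 3′ in the direction of the gene. They are 250 bases long except for Gpx5, where the part of the window that ran into the annotated gene was left off and 209 bases remain. Gpx5 set the classes, the ribonuclease-family gene Rnase10 and the lipocalin Lcn10 are proximal, Crisp1 is the distal gene and Akr1b7 the vas deferens gene. Capitals mark AGAACA, one arm of the androgen response element, on either strand (TGTTCT on the other).
Gpx5, chr13:21292728-21292936, minus strand: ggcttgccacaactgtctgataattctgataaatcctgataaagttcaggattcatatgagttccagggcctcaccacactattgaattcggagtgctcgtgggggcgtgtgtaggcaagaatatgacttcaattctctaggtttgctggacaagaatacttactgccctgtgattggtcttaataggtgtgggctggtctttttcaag
Rnase10, chr14:51007501-51007750, plus strand: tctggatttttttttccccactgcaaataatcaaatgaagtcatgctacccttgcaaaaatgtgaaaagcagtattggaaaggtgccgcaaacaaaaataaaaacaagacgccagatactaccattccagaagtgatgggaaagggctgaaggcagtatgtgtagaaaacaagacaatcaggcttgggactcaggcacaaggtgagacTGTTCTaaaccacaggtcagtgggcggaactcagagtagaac
Lcn10, chr2:25682476-25682725, plus strand: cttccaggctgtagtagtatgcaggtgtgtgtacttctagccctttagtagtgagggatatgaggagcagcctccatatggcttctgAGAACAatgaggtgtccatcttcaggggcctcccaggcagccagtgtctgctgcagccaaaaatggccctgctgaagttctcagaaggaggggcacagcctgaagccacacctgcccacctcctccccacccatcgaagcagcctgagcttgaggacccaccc
Crisp1, chr17:40319208-40319457, minus strand: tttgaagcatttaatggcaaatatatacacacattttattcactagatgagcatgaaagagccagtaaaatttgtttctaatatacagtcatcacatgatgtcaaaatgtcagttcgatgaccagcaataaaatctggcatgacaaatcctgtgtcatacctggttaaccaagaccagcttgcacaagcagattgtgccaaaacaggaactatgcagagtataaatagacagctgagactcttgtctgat
Akr1b7, chr6:34412112-34412361, plus strand: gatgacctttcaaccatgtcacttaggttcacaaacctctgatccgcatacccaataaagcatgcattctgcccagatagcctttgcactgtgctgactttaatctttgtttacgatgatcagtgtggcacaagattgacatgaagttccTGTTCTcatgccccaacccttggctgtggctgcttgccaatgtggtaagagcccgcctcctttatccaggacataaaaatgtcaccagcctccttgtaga
Of the 20 initial segment and caput genes, 8 had a window that lay wholly outside the annotated gene, and AGAACA was found on 1 strand or the other in 3 of them (37.5%), Lcn10, Rnase10 and Crisp4. The share was 12.5% of 6981 such windows over all genes tested. Of 68 with a window that were called higher in the high class with a log2 fold change of at least 5, 19 had it (27.9%), while among all 672 called higher the share was 13.1%. AGGAAG, a core of ETS factor sites, was in 3 of the 8 windows (37.5%), in 41.2% of the 68 and in 28.6% of all. Both motifs were chosen with the levels of these genes known, and a match is a description of the letters only.

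Gpx5, which encodes a glutathione peroxidase secreted by the caput epithelium, lay at chr13:21286429-21292727 (GRCm38.p6). The lowest raw level inside the high class was 22071 CPM, in KPC 8, and the highest outside it was 87.5 CPM, in KPC IL6KO 5, a 252-fold gap with no pad in between. From here on CPM were scaled by trimmed mean of M-values (TMM) factors. On that scale Gpx5 was at 21347 CPM in the lowest, 34256 CPM in the median and 54957 CPM in the highest of the 7 high pads. The low pads held 52.2 CPM in no tumor 6, 4.81 CPM in no tumor 8, 85.8 CPM in KPC IL6KO 5, 4.69 CPM in KPC IL6KO 7 and 5.65 CPM in KPC IL6KO 8. These values chose the classes and are given without a test.

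No tumor pads were split 2 to 2, KPC pads were all high and 1 of 4 KPC IL6KO pads was high. A difference in class between the 3 tumor groups did not pass Fisher's exact test (two-sided, p = 0.212, n = 12 mice). P-values of the gene fits below set a difference against the spread between these mice. The Fisher and permutation tests here ask only how classes or totals fall over the pads. Total counts per library ran from 26306377 to 43464498 in the high class and from 30444563 to 56308545 in the low class (exact permutation test, two-sided, p = 0.366, 7 against 5). No 2 pads of a group agreed within sampling noise. The defining adipocyte transcripts were present in every pad. Fabp4, the fatty acid carrier of adipocytes, was at 567 to 9161 CPM over the 12 pads and the hormone Adipoq at 123 to 2830 CPM.

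**Figure D1:**
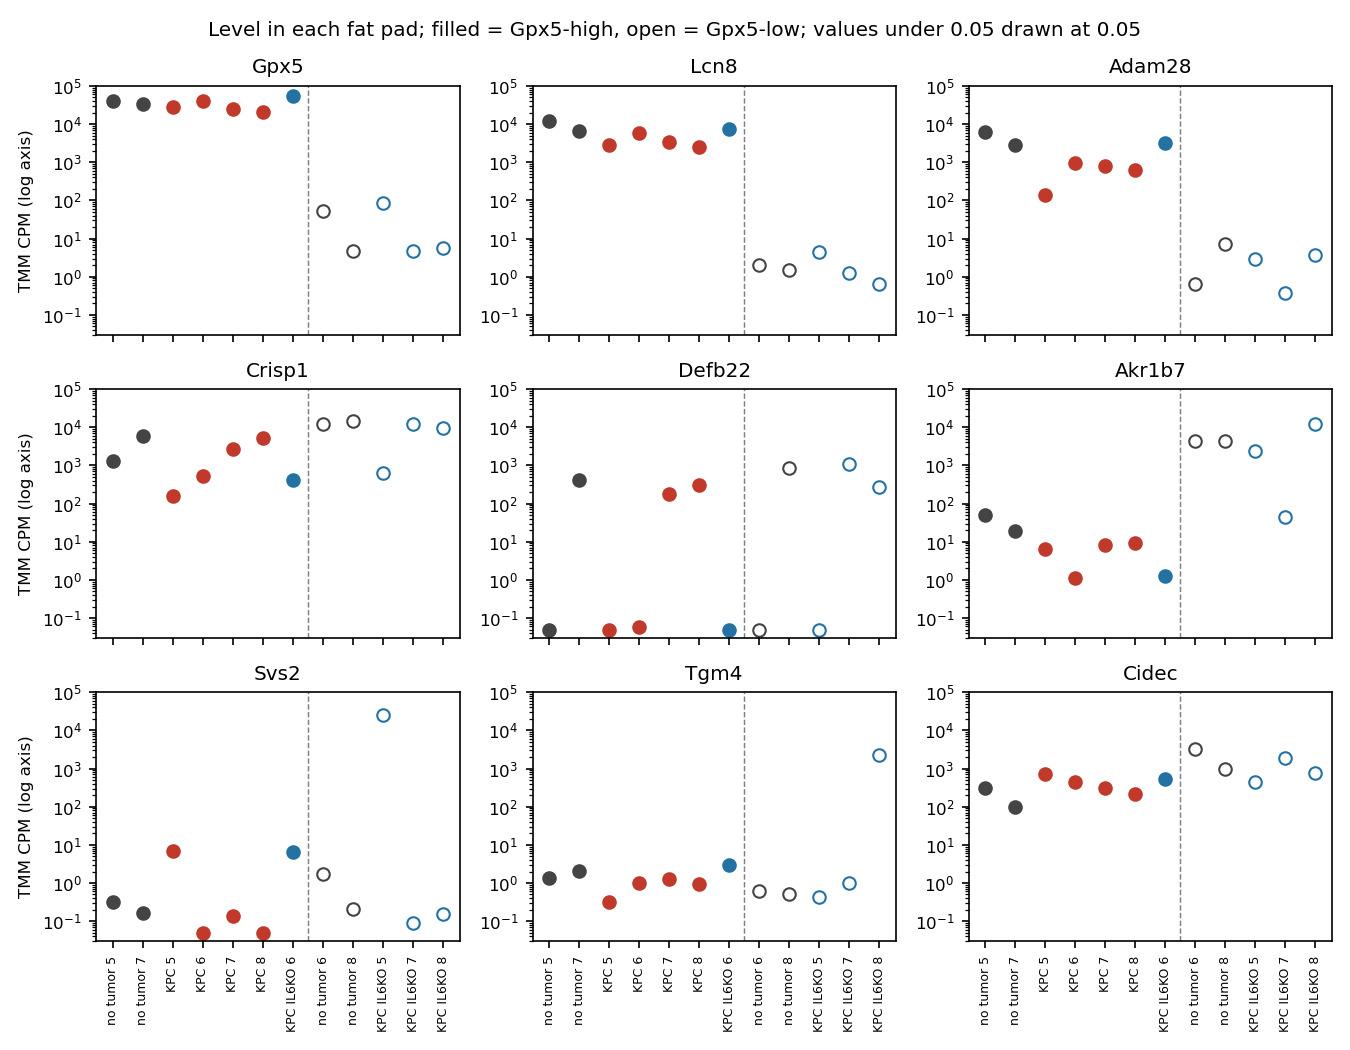
Level of 9 genes in each of the 12 fat pads, in TMM-scaled CPM on a log axis, with Gpx5-high pads (filled) left and Gpx5-low pads (open) right of the dashed line and color for the tumor group. Lcn8 and Adam28 followed Gpx5, Crisp1 was highest in 4 of the low pads, Akr1b7 in 4 of the low pads, and Svs2 and Tgm4 each stood out in 1 pad (24848 and 2279 CPM).

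High pads were compared with low pads over all 16962 genes with edgeR's quasi-likelihood model, tumor group as a term, with calls made where the fold change was at least 1.5 and the adjusted p (Benjamini-Hochberg) at most 0.05. All KPC pads were high, so the fitted differences and calls took the class difference from no tumor and KPC IL6KO pads alone. The high pads of those groups were no tumor 5 and 7 and KPC IL6KO 6. CPM ranges of high pads given beside the fitted values also include the KPC pads. Of the 20 genes of the initial segment and caput list, 16 were called higher and 0 lower, beside 1704 genes called higher over the whole table (10%) and 1194 called lower (7.04%). In 16 of 20 the classes did not overlap, beside 5.59% of all genes that were higher and 2.71% that were lower without overlap. The list includes Gpx5 and the contrast is the one that chose the pads, so nothing is read from these counts. Without KPC IL6KO 6 the whole-table counts were 601 higher and 217 lower, and the lower count was 630, 601 and 549 without no tumor 5, 6 and 7. The median log2 fold change of the list was 7.94, beside -0.09 over all genes. Summed over the list, the high pads held 47705 to 119561 CPM and the low pads 413 to 4788 CPM, with KPC IL6KO 5 lowest. Gpx5 is part of these sums, and the other 19 genes held 21744 to 80269 CPM in the high and 327 to 4783 CPM in the low pads, with a median log2 fold change of 7.74. All 70 epididymis genes of the lists took 5.74 to 12% of the counts of the high libraries and 0.245 to 3.25% of the low ones.

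The list had genes that were close to absent from the low pads. Lcn8, a lipocalin that carries lipophilic ligands in the duct lumen, was at 2553 CPM in the lowest, 5957 CPM in the median and 11922 CPM in the highest high pad. Its low pads were at 2.04, 1.53, 4.34, 1.28 and 0.642 CPM (no tumor 6 and 8, KPC IL6KO 5, 7 and 8 in that order, as in all such series here). The fitted log2 difference was 12.11 (SE 0.78), and the classes did not overlap. Spag11b, a secreted protein related to beta-defensins, was at 4191 to 10157 CPM in high pads and at 0.825 to 18.3 CPM in low pads. The ribonuclease-family gene Rnase10 (345 to 7124 against 0.416 to 3.90 CPM), the metalloprotease-family gene Adam28 (141 to 6224 against 0.386 to 7.16 CPM) and the cystatin Cst11 (883 to 3267 against 0.208 to 5.67 CPM) showed the same separation. Lcn9, Lcn10, Lcn6, Cst8 and Cst12 were likewise at 24.1 CPM or less in every low pad and at 203 CPM or more in every high pad.

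Some other caput genes kept a level in most low pads. Adam7, a sperm surface protein made by the epididymis, was at 1412, 2624, 20.2, 2862 and 689 CPM in the low pads and at 3212 to 15217 CPM in the high pads. Its fitted log2 difference was 3.16 (SE 0.97). Rnase12 was at 110, 352, 1.23, 375 and 86.0 CPM in the low pads and 237 to 466 CPM in the high pads, so the classes overlapped and it was not called. Lcn5, a retinoid carrier of the mid and distal caput, Rnase9 and Crisp4 were also not called, with fitted log2 differences of 4.53 (SE 1.56), 2.11 (SE 1.53) and 3.08 (SE 1.31). Lcn5 was at 0.623, 748, 1.79, 145 and 8.80 CPM in low pads and 2419 to 4711 CPM in high pads, without overlap. The remaining called members were Lcn12, Spag11a, the receptor tyrosine kinase Ros1 of the initial segment and Mfge8, a milk fat globule protein that binds sperm. Ros1 was at 1.72 to 22.6 CPM in low pads against 164 to 757 CPM in high pads. Spag11a was at 5.99, 85.8, 0.761, 24.9 and 5.72 CPM in low pads against 262 to 572 CPM. KPC IL6KO 5 was the lowest of the low pads for Adam7, Rnase9, Rnase12, Crisp4, Lcn12, Cst8, Cst12, Spag11a and Ros1, and the highest of them for Gpx5, Lcn8, Lcn9, Lcn10, Cst11, Spag11b and Rnase10.

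The 7 high pads were not alike in these genes. Gpx5 differed 2.57-fold between the highest and the lowest high pad and Lcn5 1.95-fold, but Adam28 differed 44.1-fold, Rnase10 20.7-fold and Lcn9 11.6-fold. No tumor 5 was the highest high pad for 12 of the 20 genes and KPC 5 the lowest for 10. Adam28 was at 6224 and 2771 CPM in no tumor 5 and 7, at 3280 CPM in KPC IL6KO 6, and at 141, 979, 809 and 619 CPM in KPC 5 to 8. For 12 of the 20 genes all 4 KPC pads lay below the other 3 high pads, a pattern seen in 16.1% of all genes, with 12.5% the other way. In the comparison of KPC with no tumor that had the class as a term, 0 of the 20 were called in either direction by edgeR, with a median log2 difference of -1.21. Adam28 had the lowest of the 20 (log2 -2.88, adjusted p = 0.110, edgeR), and Mfge8 the smallest adjusted p (log2 -1.47, adjusted p = 0.0576).

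**Figure D2:**
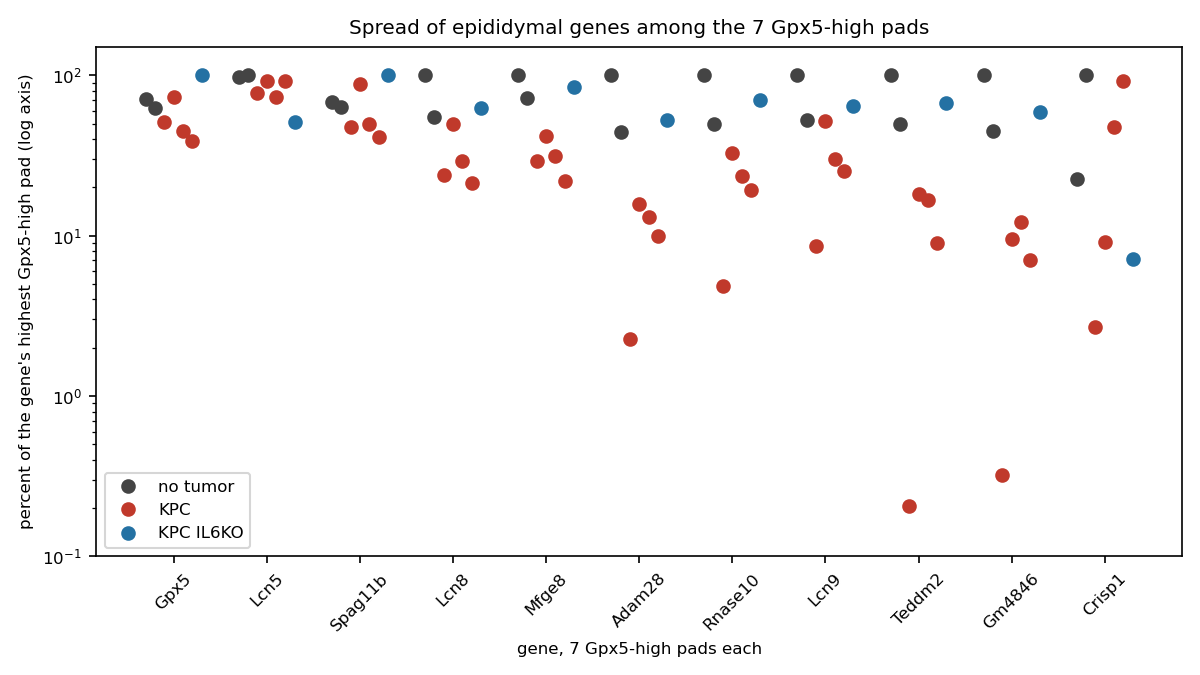
Level of 11 genes in the 7 Gpx5-high pads as a percent of each gene's highest high pad (log axis), with 1 point per pad in color of its tumor group. Gpx5, Lcn5 and Spag11b stayed within 2.57-fold while Adam28, Rnase10, Teddm2 and Gm4846 were lowest in KPC 5.

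Transcripts of the distal duct did not follow Gpx5. Crisp1, a secreted protein that coats sperm, lay at chr17:40293758-40319207 and was at 12023, 14517, 621, 12122 and 9432 CPM in the low pads. In the high pads it was at 156 CPM in the lowest, 1305 CPM in the median and 5754 CPM in the highest. Of the 5 low pads 4 were above all high pads and KPC IL6KO 5 was inside their range. Of the 5 genes of the distal list 0 were called by the edgeR fit, and the median log2 difference was -2.74, with Crisp1 at -2.74 (SE 1.41). Cd52, a small anchored glycopeptide passed to sperm, was at 3450, 2552, 282, 2539 and 1178 CPM in the low pads and 35.5 to 1202 CPM in the high pads.

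Defb22, a beta-defensin of the sperm glycocalyx, split the pads in another way. It was at 831, 1118 and 271 CPM in no tumor 8, KPC IL6KO 7 and KPC IL6KO 8 and at 422, 176 and 302 CPM in no tumor 7, KPC 7 and KPC 8. In the other 6 pads, 2 low and 4 high, it was at 0.0573 CPM or less. Ces5a, a carboxylesterase secreted into the lumen, was at 415 to 2168 CPM in high pads and 794 to 3030 CPM in 4 low pads, and at 1.74 CPM in KPC IL6KO 5. Spinkl, a Kazal-type protease inhibitor, was at 725 CPM in KPC IL6KO 5, while the other 11 pads held 2.03 to 60.4 CPM. Of 11 sperm genes 0 were called by edgeR, while all 11 had a fitted value below 0 (median log2 -1.61), and the protamine Prm2 was at 45.4 to 314 CPM in high pads and at 261, 666, 0.442, 276 and 66.5 CPM in low pads.

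Genes known as regulators of the proximal duct were higher in high pads for 6 of 11 members in the table, and 0 were lower, beside 10% and 7.04% of all genes. Adgrg2, an adhesion receptor of the proximal duct, was at 928 to 4020 CPM in high pads and at 76.4, 30.6, 21.6, 59.2 and 36.9 CPM in low pads, a log2 difference of 6.16 (SE 0.47). Etv5, an ETS factor of the initial segment, was at 107 to 703 CPM against 12.6 to 40.2 CPM (log2 4.74, SE 0.49). Its relative Etv4 was at 26.6 to 134 CPM in high pads and at 0.727, 1.09, 40.4, 2.32 and 8.28 CPM in low pads, where KPC IL6KO 5 reached the level of high pads. Srd5a2, which makes dihydrotestosterone, was at 50.5 to 131 CPM in high pads and 1.84 to 28.0 CPM in low pads, without overlap. Of the other members Emx2, Pax2, Pax8, Aqp9 and Srd5a1 were not called.

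Beta-defensins, antimicrobial and sperm-coating peptides, were a divided family. Of 35 measured members, 12 were called higher and 0 lower, beside 10% and 7.04% of all genes. Defb20 was at 1433 to 4433 CPM in high pads and at 2.35, 14.2, 12.8, 19.6 and 4.25 CPM in low pads (log2 8.54, SE 0.72). Defb25 was at 244 to 1610 CPM against 0.183 to 2.04 CPM, and Defb42 at 406 to 1471 CPM against 53.1 to 265 CPM. The other called members were Defb12, Defb13, Defb15, Defb18, Defb21, Defb41, Defb45, Defb47 and Defb48. Another 13 members had a fitted value below 0, Defb22 among them, and none of those was called. KPC IL6KO 5 had the lowest sum over the family, 97.3 CPM, beside 1103 to 3782 CPM in the other low pads and 4893 to 13767 CPM in the high pads.

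Hox genes, which carry position along the body and the genital ducts, differed by their number. Of 33 measured, 12 were called higher in high pads, beside 10% of all genes, all with numbers of 9 or less from the b and d clusters (Hoxb1, Hoxb3, Hoxb5 to Hoxb9, Hoxd1, Hoxd3, Hoxd4, Hoxd8 and Hoxd9). Hoxb9 was at 56.8 to 137 CPM in high pads and at 27, 20.6, 9.79, 10.9 and 24.5 CPM in low pads. The 2 called lower were Hoxd13 and Hoxa10. Hoxd13, the most posterior gene of its cluster, was at 0.830, 5.30, 1.45, 0 and 5.35 CPM in low pads and at 0.0325 CPM or less in the high pads, a level of at most 1 count. Hoxa10 was at 13.6, 15, 25.1, 2.35 and 17.6 CPM in low pads against 0.857 to 8.29 CPM. KPC IL6KO 7 was the low pad at the level of high pads for both, and Hoxa11 had the same order (6.88, 10.1, 3.29, 0.0891 and 9.96 CPM against 0.0584 to 0.888 CPM) but was not called.

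Transcripts of the vas deferens and the accessory glands were found in low pads, in different pads for different organs. Akr1b7, an aldose reductase-like protein that is abundant in the vas deferens, was at 4266, 4249, 2402, 44.9 and 12042 CPM in the low pads. In the high pads it was at 1.09 to 48.8 CPM, with a median of 8.19 CPM. In this way 4 low pads were far above all high pads and KPC IL6KO 7 lay at the edge of their range (log2 -8.33, SE 2.06, 1 of 7 members of the list called). The seminal vesicle secretory genes were high in KPC IL6KO 5 alone. Svs2 was at 24848 CPM there and at 6.83 CPM or less in the other 11 pads, Svs5 at 23465 CPM against at most 7.59 CPM, and Svs1 at 9616 CPM against at most 40.5 CPM. The 6 Svs genes together took 8.42% of the counts of that library. Svs3a and Svs3b are near-identical copies, and their split of reads is uncertain.

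A prostate gene stood out in another low pad. Tgm4, the transglutaminase that forms the copulatory plug, was at 2279 CPM in KPC IL6KO 8, while the other 11 pads held 0.321 to 2.98 CPM. The sum over 5 urothelial genes was at 280, 168 and 117 CPM in the low pads no tumor 8, KPC IL6KO 5 and KPC IL6KO 8. It was at 150 CPM in the high pad KPC 8. Outside no tumor 8 most of these sums was the keratin Krt20 alone. Krt20 was at 151 and 89.4 CPM in the low pads KPC IL6KO 5 and 8 and at 132 and 70.3 CPM in the high pads KPC 8 and 5. In no tumor 8 it was at 16.2 CPM. The uroplakin Upk3a was at 79.2 CPM in no tumor 8, at 6.85 and 4.98 CPM in KPC IL6KO 8 and 5, and at 0.892 CPM or less in the other 9 pads. KPC 8, with 0.358 CPM, was among these. The Svs, prostate, urothelium and sterol lists were added after levels had been seen. In bulk tissue such as this, more cells of a type and more RNA per cell cannot be told apart.

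**Figure D3:**
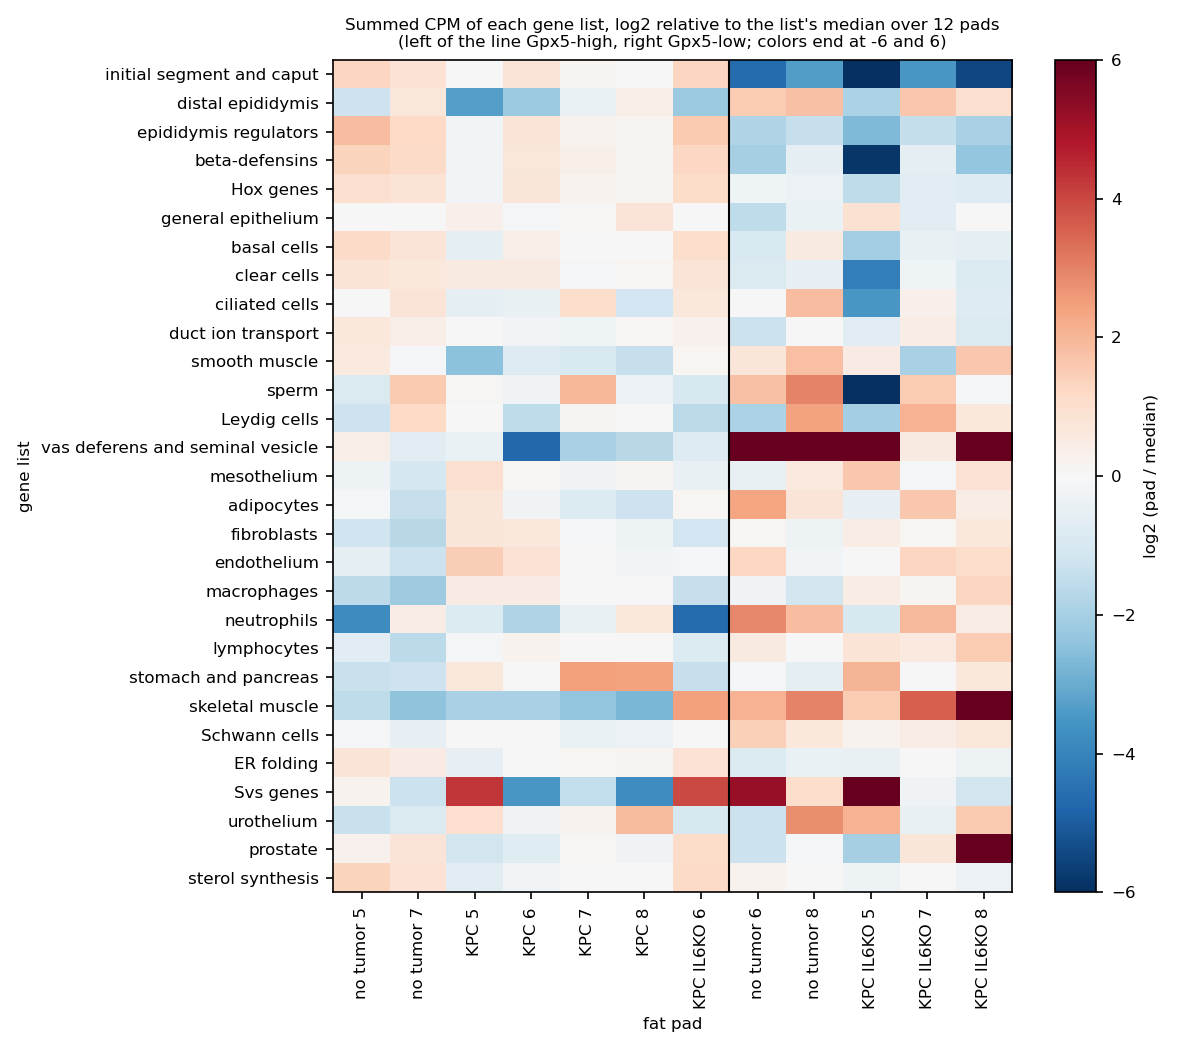
Summed CPM of each gene list in each pad, as log2 relative to that list's median over the 12 pads, with Gpx5-high pads left and Gpx5-low pads right of the line (colors end at -6 and 6). The initial segment and caput row includes Gpx5, which set the classes (without it the sums were 21744 CPM or more against 4783 CPM or less), while seminal vesicle and prostate genes mark KPC IL6KO 5 and KPC IL6KO 8.

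Of 12 general epithelial genes 5 were called higher, beside 10% of all genes, among them the adhesion molecule Epcam, at 218 to 355 CPM in high pads and at 106, 187, 129, 188 and 163 CPM in low pads (log2 1.19, SE 0.21). The keratin Krt18 was not called and was highest in KPC 8 (1038 CPM), KPC IL6KO 5 (916 CPM) and KPC 5 (835 CPM). Basal cell genes were called higher for 2 of 4, clear cell genes for 1 of 6, ciliated cell genes for 1 of 9 and ion transport genes of the duct for 3 of 8, with 0 called lower in each. The share of all genes was again 10%, near that of the clear and ciliated cell lists. Atp6v0d2, a proton pump subunit of clear cells, was at 60.8 to 185 CPM in high pads and at 4.37 to 19.2 CPM in low pads. The chloride channel Cftr was at 11.4 to 189 CPM in high pads and at 3.39, 6.43, 31.4, 5.08 and 12.1 CPM in low pads.

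Genes for protein folding in the endoplasmic reticulum, the compartment that secreted proteins pass, were called higher for 10 of 12 with 0 lower, beside 10% of all genes. Hspa5, its main chaperone, was at 1045 to 2760 CPM in high pads and at 809 to 1717 CPM in low pads (log2 1.14, SE 0.27), so the classes overlapped. They overlapped for all 12 genes. Summed folding genes were at 4741 to 7407 CPM in KPC pads and at 3836 to 6520 CPM in low pads. The high pads of the other groups held 9582 to 12101 CPM. Of 18 genes of sterol synthesis and uptake 12 were called higher and 1 lower, beside 10% and 7.04% of all genes. The summed sterol genes were highest in no tumor 5 (2528 CPM), KPC IL6KO 6 (2245 CPM) and no tumor 7 (1839 CPM), and were at 663 to 1171 CPM in the other 9 pads, KPC and low pads alike.

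Smooth muscle genes were called lower in high pads for 8 of 10, beside 7.04% of all genes, as in the lists that follow. Myh11, the smooth muscle myosin, was at 1104, 2334, 948, 117 and 2225 CPM in low pads and 43.7 to 242 CPM in high pads (log2 -2.72, SE 0.80), and again KPC IL6KO 7 was the low pad inside the range of high pads. The desmin gene Des was at 165, 379, 133, 38.0 and 415 CPM against 20.4 to 44.0 CPM. Actg2, the enteric smooth muscle actin, was the exception in sign: it was at 110 to 2310 CPM in high pads and 21.0 to 658 CPM in low pads and was not called (log2 2.24, SE 0.81).

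Mesothelial genes, of the lining of the pad and duct, were called lower for 6 of 7, with Upk3b at 46.4 to 89.4 CPM in low pads and 5.48 to 21.9 CPM in high pads. Fibroblast genes were called lower for 7 of 8, and the eighth, the growth factor receptor Pdgfra, was higher in high pads (201 to 447 against 48.4 to 88.7 CPM). These calls rest on no tumor and KPC IL6KO pads, and levels in the KPC pads differed from those of the other high pads. Summed fibroblast genes were at 5971 and 5518 CPM in KPC 5 and 6, above all low pads (2903 to 5465 CPM). KPC 7 and 8 held 3404 and 2855 CPM, and the high pads of the other groups 1131 to 1621 CPM. Macrophage genes were called lower for 6 of 8, lymphocyte genes for 4 of 8, and endothelial, neutrophil and Schwann cell genes for 1 of 8, 1 of 5 and 1 of 4, where 1 of 8 is near the share over all genes. Summed macrophage genes were at 1224 to 1756 CPM in the KPC pads, inside the range of low pads. In the other high pads they were at 279 to 467 CPM, below all low pads. The classes did not overlap for 1 of 7 mesothelial, 1 of 8 fibroblast (Pdgfra) and 0 of 8 macrophage genes. Skeletal muscle genes were called lower for 2 of 6. Acta1, the skeletal muscle actin, was at 91.5, 133, 71.8, 75.4 and 624 CPM in low pads, at 33.4 CPM in KPC IL6KO 6 and at 2.84 CPM or less in the other 6 high pads. None of 5 Leydig cell and 6 stomach and pancreas genes in the table was called in this fit.

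Adipocyte transcripts, the tissue the pads are named for, were called lower for 1 of 15, the fat regulator Pparg, while all 15 had a fitted value below 0 (median log2 -1.72). Adipoq was at 2830, 991, 387, 1649 and 682 CPM in low pads and at 123 CPM in the lowest, 323 CPM in the median and 492 CPM in the highest high pad (log2 -1.87, SE 0.66, not called). KPC IL6KO 5 was the low pad within the range of high pads. The lipid droplet protein Cidec was at 3160, 1002, 453, 1840 and 787 CPM against 98.0 to 709 CPM. Summed adipocyte genes ran from 3459 CPM in no tumor 7 to 47731 CPM in no tumor 6, a high and a low pad of the same group.

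**Figure D4:**
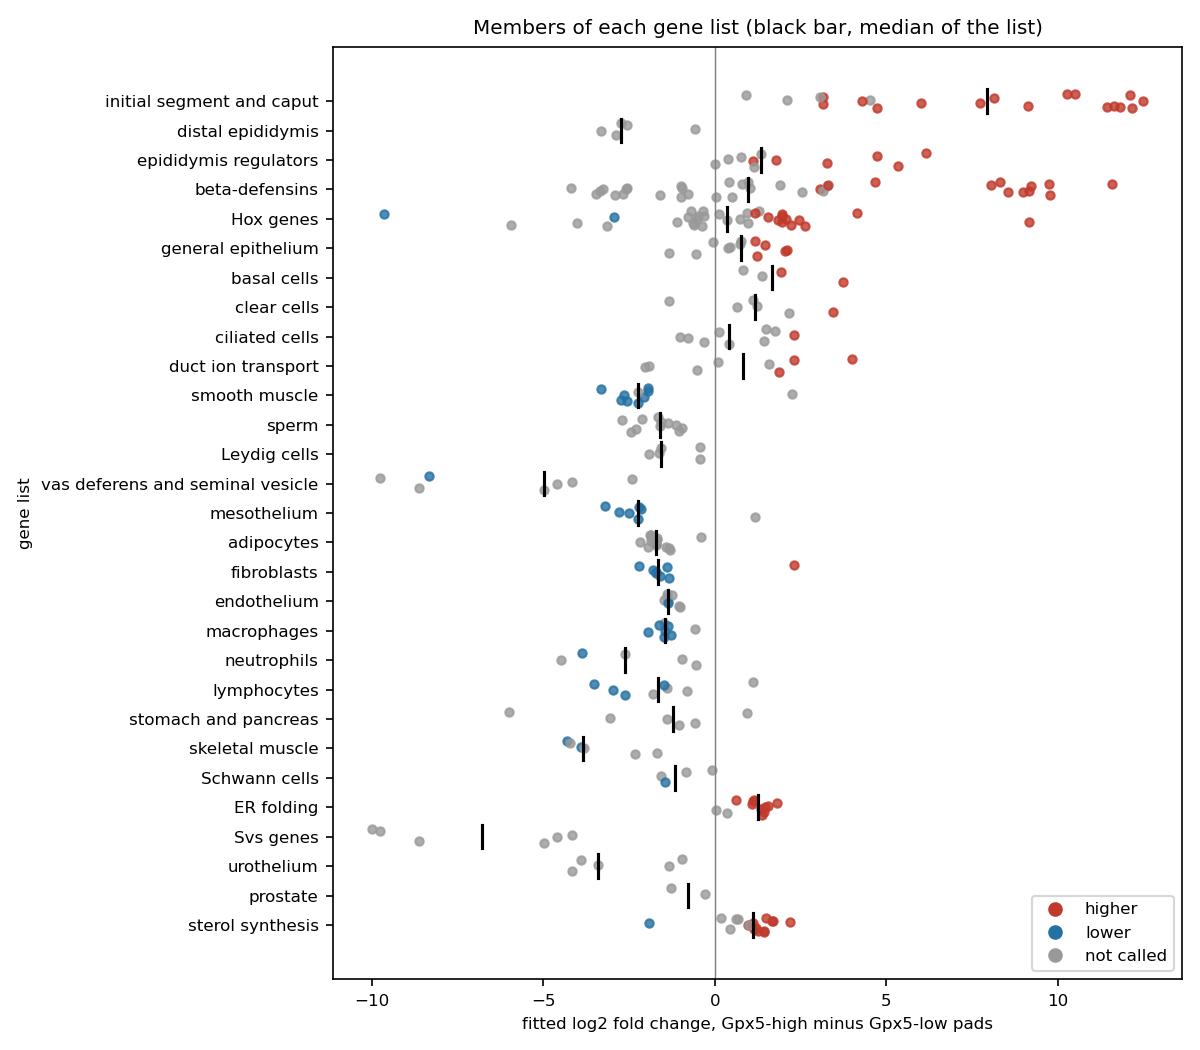
Fitted log2 fold change between Gpx5-high and Gpx5-low pads of every member of each gene list, colored by the call, with a black bar at the list's median. The differences rest on no tumor and KPC IL6KO pads, as all KPC pads were high. The initial segment and caput list has the highest median (7.94), and adipocyte genes lie below 0 with 1 of 15 called.

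The 10 called genes with the largest rise, without overlap and with mean log2 CPM no lower than 1, were Gm3434, Gm4846, 9230110F15Rik, Lcn9, Teddm2, Gm5916, Cst11, Lcn8, Spag11b and Clpsl2. Teddm2, an epididymal membrane protein, was at 9.43 to 4593 CPM in high pads and 0.267 to 1.22 CPM in low pads. Gm3434 was at 0.496 to 44.9 CPM in high pads and at 0 in all 5 low pads, at least 190-fold higher in the mean of the high class when 3 counts per low library are taken as the floor. The 10 with the largest fall were Gm9573, Snx31, P2rx1, Kcnc1, Smpx, Bmp3, Mybpc1, Myoc, Acta1 and Lctl. P2rx1, the ATP receptor through which nerves contract the vas deferens, was at 46.8, 116, 38.3, 2.97 and 103 CPM in low pads and 0.442 to 1.85 CPM in high pads (log2 -6.88, SE 1.14). Bmp3, a secreted growth factor, was at 27.2, 24.2, 14.3, 12.5 and 46.7 CPM against 0.628 to 4.18 CPM, and Mybpc1, a myosin-binding protein, was at 4.28 to 123 CPM against 0.146 to 2.47 CPM.

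Neighbours on the chromosomes were frequent among the strongest genes. Of 143 genes called higher with a log2 fold change of at least 5, 135 had a position in the annotation, and 35 of these (25.9%) had another such gene within 100 kb, beside 2.14% of the other 16049 genes. Lcn8, Lcn6 and Lcn10 start at 25653118, 25676638 and 25682726 on chromosome 2, Cst11, Cst12 and Cst8 at 148768618 to 148798839 on the same chromosome, and Defb18 and Defb41 at 18236402 and 18250978 on chromosome 1. Of the 143 genes 22 (15.4%) were also in the quadriceps table, beside 74.3% of all genes tested, and Gpx5, Crisp1 and the Svs genes were not listed in it.

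The contrast was also fitted within each tumor group that held both classes, from 1 model with 5 cells of tumor group and class. Within no tumor, 2 high against 2 low pads, 611 genes were called higher and 216 lower, and fitted on the 4 no tumor libraries alone the counts were 68 and 6. In KPC IL6KO, 1 high against 3 low pads, the counts were 603 and 65, where the single high pad is assumed to vary like the pads of the other cells. Of the genes called higher, 406 were shared, 66.4% of those within no tumor and 67.3% of those within KPC IL6KO. Of those called lower 27 were shared, 12.5% and 41.5%. Initial segment and caput genes had median log2 differences of 6.95 and 9.04, smooth muscle genes -2.54 and -1.87 and adipocyte genes -2.49 and -0.86. A test of the difference between the 2 contrasts called 0 genes by edgeR, with 376 at an unadjusted p under 0.05.

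**Figure D5:**
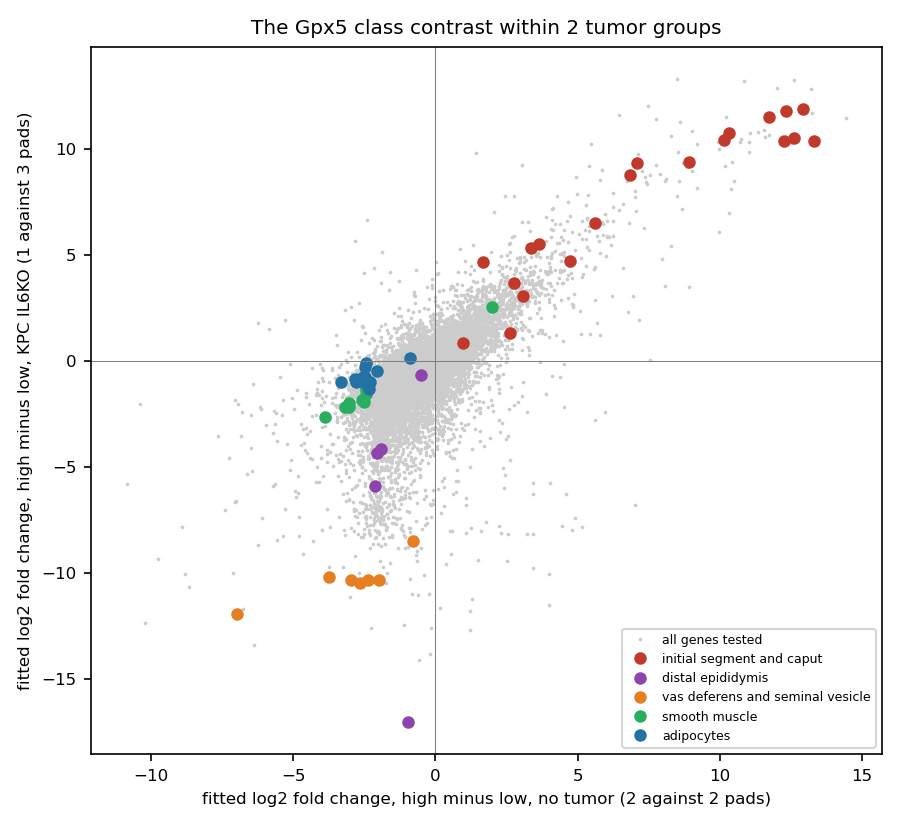
Fitted log2 fold change between high and low pads within no tumor (x axis, 2 against 2) and within KPC IL6KO (y axis, 1 against 3) for all 16962 genes (grey) and 5 lists (color). Initial segment and caput genes lie above 0 on both axes, and the vas deferens and seminal vesicle genes lie below 0 on both.

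Whether tumor groups differed once the class was a term was a question that the rule did not settle. With the class as a term, KPC differed from no tumor in 495 genes called higher (2.92%) and 132 called lower (0.778%) by edgeR's quasi-likelihood test. Without the term the counts were 0 and 0, with 2061 genes at an unadjusted p under 0.05, and the biological coefficient of variation was 63.5% without and 53.6% with the term. KPC had no low pad, so its estimate with the term took the class difference from the other groups. Among high pads alone, 4 KPC against 2 no tumor, 12 genes were called higher (0.0707%) and 0 lower. The 495 higher and 132 lower became 12 and 0 without KPC IL6KO 6, 0 and 0 without no tumor 7, and 82 and 2 without no tumor 5. Without no tumor 6 or 8 they were 321 and 70 or 292 and 51. Without KPC 5, 6, 7 or 8 they were 185 and 30, 191 and 39, 350 and 57, or 266 and 31. Without KPC IL6KO 5, 7 or 8 they were 785 and 304, 711 and 118, or 417 and 86.

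All 12 genes called among the high pads were also called with the class term. Socs3, a feedback inhibitor of IL-6 family signaling, was at 91.2, 54.1, 41.9 and 45.1 CPM in KPC 5 to 8, at 2.29 and 2.42 CPM in the high and 4.43 and 4.41 CPM in the low no tumor pads. It was at 75.8, 8.61, 29.4 and 75.8 CPM in KPC IL6KO 5 to 8. Itih4, an acute phase protein, was at 12.8 to 59.98 CPM in KPC, 0.395 to 1.83 CPM in no tumor and 20.4 to 25.99 CPM in KPC IL6KO pads. The other 10 were Creb3l1, Flrt2, Bcl3, Mmp3, Gata6, Rab31, Acsm3, Lrrn4, Sfrp2 and Pkhd1l1, and these 12 are named because they were called and not by a rule set in advance. No tumor and KPC did not overlap for Socs3 and Itih4. For Acsm3, Lrrn4, Sfrp2 and Pkhd1l1 the KPC pads overlapped with the low no tumor pads.

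Among genes called with the class as a term, the 5 with the largest rise in KPC were Clca3b, Gkn1, Fgf23, Tff1 and Cxcl17. Tff1 and Gkn1, both secreted by stomach mucosa, were at 2.66 to 19.3 and 0.859 to 12.3 CPM in KPC pads and at 0.0819 and 0.277 CPM or less in no tumor pads. Fgf23, a phosphate-regulating hormone, was at 17.5 CPM in KPC 5 and at 0.813 to 1.41 CPM in the other 3 KPC pads. In no tumor pads it was at 0.173 CPM or less. The 5 called genes with the largest fall were Sfrp4, Emid1, Bmp7, Nsdhl and Serpinf2. Serpinf2, an inhibitor of plasmin, was at 24.7, 29.5, 40.0 and 16.6 CPM in KPC and at 128 and 141 CPM in the high no tumor pads (log2 -2.36, SE 0.32, adjusted p = 0.0108, edgeR). It was at 0.632 CPM or less in the low no tumor pads, and among high pads alone it was not called (adjusted p = 0.0516, edgeR). Nsdhl, an enzyme of cholesterol synthesis, was at 37.1 to 70.2 CPM in KPC against 274 and 205 CPM in the high no tumor pads (log2 -2.43, SE 0.48, adjusted p = 0.0289, edgeR), and was not called among high pads alone (adjusted p = 0.0950, edgeR). Nor were Tff1, Gkn1 and Fgf23 (adjusted p = 0.0739, 0.124 and 0.150, edgeR).

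By list, KPC was called higher than no tumor for 5 of 8 macrophage genes, 3 of 5 neutrophil genes, 4 of 7 mesothelial genes, 4 of 8 fibroblast genes and 3 of 6 stomach and pancreas genes, beside 2.92% of all genes. Of the members of these lists 1, the mesothelial gene Lrrn4, was also called among high pads alone, and 0 genes of the whole table were called without no tumor 7. Lrrn4 was at 13.7 to 21.9 CPM in KPC, 3.03 and 3.02 CPM in the high and 19.8 and 21.3 CPM in the low no tumor pads. KPC thus lay above the high no tumor pads only. C1qa, a complement subunit of macrophages, was at 128 to 165 CPM in KPC and at 99.9 and 50.4 CPM in the low and 44.7 and 30.5 CPM in the high no tumor pads (log2 2.19, SE 0.36, adjusted p = 0.0163, edgeR). The mesothelial factor Wt1 was at 12.9 to 27.2 CPM in KPC against 1.31 to 18.4 CPM (log2 2.99, SE 0.46, adjusted p = 0.0142, edgeR). Among high pads alone C1qa and Wt1 had adjusted p-values of 0.0699 and 0.0516 (edgeR). Of the 18 sterol genes 13 were called lower in KPC, beside 0.778% of all genes, as was 1 of 33 Hox genes, and 0 genes of the adipocyte, smooth muscle, epididymal and beta-defensin lists were called. Among high pads alone 0 sterol and 0 Hox genes were called, and the sterol list was added after levels had been seen. KPC IL6KO differed from no tumor in 0 genes in either direction with the class term, by edgeR's quasi-likelihood test, with 1343 at an unadjusted p under 0.05, while DESeq2 called 218 higher and 6 lower.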

How the data were processed

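Poly(A) or captured mRNA of 12 epididymal fat pads was sequenced (the sources name 2 different TruSeq kits), and the authors aligned reads to mm10 with STAR and counted uniquely mapped reads per gene with featureCounts 1.5.1. The submitters' processing notes also name edgeR 3.12.1. The deposited values are raw counts per gene, 1 table per tissue, and 16962 genes in fat, with 26306377 to 56308545 counts per library. A count of 3 or fewer was taken as the floor, which covers counting error only. The samples are separate mice and were grouped by their titles.

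Counts were fitted with edgeR 4.0.16 (R 4.3.3; filterByExpr, which removed 0 genes, TMM factors, quasi-likelihood test) on tumor group and Gpx5 class. Standard errors are the log2 fold change divided by the root of the F value. DESeq2 1.42.0 served as an alternative, and the fits were tested on simulated data. The pads, gene lists and rules were chosen with earlier results of these data known. Genes were named by rule: Gpx5 and Crisp1, every initial segment, caput and distal gene, of each other list the most abundant and the most changed member, the 10 largest called changes per direction without overlap and with mean log2 CPM no lower than 1, and 5 per direction for each tumor contrast. Further genes were chosen after their values were seen. Positions and promoters are from RefSeq, matched by symbol, with promoter windows that ran into the annotated gene left out of the motif counts (16184 of 16962 genes had a position). Alternatives changed the test, normalization, filter, class term and libraries. The quadriceps libraries entered no fit. Some list members are not reported here. Figures were drawn with matplotlib 3.10.9.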

Additional observations from a re-analysis of the deposited data

Results flagged for a closer look

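The following 5 values lay far from the other pads of their class by Dixon's ratio, out of 64 groups of pads tested, of which chance flags about 1 in 20. Among the low pads, KPC IL6KO 5 had a summed level of distal epididymis genes of 1629 CPM (the other 4 at 11684 to 20533 CPM), of clear cell genes of 8.86 CPM (85.1 to 129 CPM) and a Crisp1 level of 621 CPM (9432 to 14517 CPM). The same pad held the seminal vesicle transcripts. KPC IL6KO 8 had a summed level of prostate genes of 2353 CPM, beside 0.417 to 2.76 CPM in the other low pads. Among the high pads, KPC IL6KO 6 had a summed level of skeletal muscle genes of 192 CPM, beside 5.11 to 11.9 CPM in the other 6.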

How the results depend on the processing

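The counts of 1704 genes higher and 1194 lower in high pads became 1872 and 2494 with DESeq2, where 1616 and 1193 genes were shared with the edgeR calls, and 1417 and 672 with log2 CPM of Gpx5 in place of the class. Fitted on the no tumor libraries alone they were 68 and 6, within KPC IL6KO 603 and 65, and without the 4 KPC libraries 1214 and 600 (this last chosen after seeing the data). Leaving out 1 library each gave 601 to 2021 higher and 217 to 1631 lower. For KPC against no tumor, 495 higher and 132 lower became 1420 and 527 with DESeq2, 1058 and 325 with the likelihood ratio test, 667 and 200 with the newer quasi-likelihood form, 134 and 11 with log2 CPM of Gpx5, 12 and 0 among high pads, 0 and 0 with no class term, and 791 and 268 without KPC IL6KO 5 and 8 (also added later). Leaving out 1 library each gave 0 to 785 and 0 to 304. For KPC IL6KO against no tumor the 0 and 0 became 218 and 6 with DESeq2 and 33 and 1 with the likelihood ratio test, and 0 to 1 higher and 0 lower without 1 library. The causes of these shifts were not tested.

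With the replicate number as a replicate block, the counts were 1517 and 953 for the class and 310 and 65 for KPC. The numbers were not taken to pair the pads, since not every pair correlated: of 12 pairs of same-numbered pads, 7 correlated above 0.1 in their deviations from the group means, with r from -0.54 to 0.65, and 9 did after the class was also removed, with r from -0.09 to 0.68. No named gene that was called changed direction in the alternatives run. Genes not called were not checked for this, and the log2 difference of Krt18 went from 0.386 to -0.413 within KPC IL6KO. With DESeq2 more genes were called lower than higher in high pads. Of the results for single genes, 95 values lost their call and 141 moved beyond the spread. A count of 3 or fewer limits what can be read of genes near 0, and KPC had no low pad.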
